A study of Mus musculus with 6 samples.

Results

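Motile cilia and sperm flagella beat because axonemal dyneins slide the microtubule doublets of the axoneme against each other. The dyneins form outer arms, which set the beat frequency, and inner arms, which shape the waveform, and both are built in the cytoplasm by dedicated assembly factors before they are carried into the cilium. Radial spokes, the nexin-dynein regulatory complex (N-DRC) and the central apparatus coordinate the arms, and tektins and many cilia and flagella associated proteins (Cfap) stabilise the doublets. In epithelia this programme belongs to multiciliated cells, where the forkhead factor Foxj1 and the regulatory factor X (Rfx) proteins switch it on. 4T1 cells, a mouse mammary carcinoma line, are not such cells.

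The genes described here are the axonemal dynein and motile cilium genes, 104 of the 22116 named genes in the deposited count table. They were chosen by their symbols (dynein heavy and intermediate chains, dynein assembly factors, radial spoke, N-DRC, Cfap and tektin genes, Ccdc39, Ccdc40, Hydin, Spag6, Spag6l, Spag16, Spag17, Foxj1 and Rfx1 to Rfx7), and the family was put forward with the difference between P3FI-90 and DMSO in these libraries already known. The calls and fold changes below therefore describe the family and are not independent evidence about it. RNA was sequenced from 4T1 cells treated for 24 h with vehicle (DMSO) or 10 µM P3FI-90, an inhibitor of the histone demethylase KDM3B, with 3 libraries per group. Both groups are the same unmodified line, and the labels do not say whether the 3 libraries came from separate cultures, so p-values measure the spread between these libraries only. Libraries held 31327094 to 37395732 counts on named genes. Of the 104 genes, 44 are Cfap genes, 10 inner arm heavy chains, 9 assembly factors, 8 radial spoke genes and 8 transcription factors, and outer arm heavy chains, intermediate chains, N-DRC and ruler genes, central apparatus genes and tektins have 5 members each.

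The labelled cell type was checked against markers. All 7 epithelial markers were counted, with sums of 152860 to 161360 normalized counts in the DMSO libraries and 64321 to 67501 after P3FI-90, and all 7 were called lower. Normalized counts here are counts scaled by edgeR's TMM factors to the mean effective library size. Of 10 multiciliated cell markers, Gmnc, Sntn, Cdhr3 and Dynlrb2 were at 0 in every library. Mcidas, which starts the multiciliated programme, had 0 counts with DMSO and 3, 9 and 5 with P3FI-90, too low to test. Of the 3 markers tested, 1 (33.3%) was called higher and 0 lower, against 39.9% and 39.4% of all genes tested. Ccdc78 went from a mean of 17.6 to 9.95 normalized counts and was not called (log2 fold change −0.82, edgeR adjusted p = 0.138). The other 2 tested markers had log2 fold changes above 0. The sum of the 10 was 132 to 155 normalized counts with DMSO and 231 to 280 with P3FI-90, most of it Foxj1 and Tppp3. Leukocyte markers, 3 of 8 at 0 in every library, summed to 32.7 to 71.9 and then 136 to 146, and endothelial markers, all 4 counted, to 12.0 to 29.6 and then 36.0 to 51.9. Fibroblast markers, with Lum at 0, summed to 1412 to 1441 and then 1001 to 1096. The part of these marker levels in the results below was not tested, and in bulk RNA more cells of a type cannot be told apart from more RNA per cell.

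Rfx proteins bind the X-box, in which the arms GTTGC and GCAAC face each other. Promoters, taken as 250 bases before to 50 bases after each RefSeq gene start on GRCm38.p6, matched 87 of the 104 genes, with 97 windows. The arm motif, GTTGCC or its complement GGCAAC, occurred in 37 of these windows (38.1%), against 12.5% of all 32851 promoter windows. It holds 1 arm of the X-box and does not require the facing arm. The forkhead motif TGTTTAC, on either strand, occurred in 4 member windows (4.12%), against 3.65% of all windows. After the sequences were read, both arms 1 to 5 bases apart were also searched. This pattern, which overlaps the arm motif in some windows, occurred in 14 member windows (14.4%) against 0.484% of all windows.

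Such letters occurred in genes of every kind of call. The arm motif was in a window of 7 of 19 matched genes called higher after P3FI-90 and 5 of 6 called lower. It was also in a window of 5 of 17 called neither and 18 of 45 not tested. Paired arms were in a window of 2, 2, 2 and 7 of these genes. The upstream 250 bases of 5 genes with paired arms, capitals marking the arms, show the pattern in genes that were called higher (Dnah6 and Tekt2), called neither (Dnai2), too low to test (Hydin) and called lower (Cfap298).
Dnah6, chr6:73221632-73221881, minus strand: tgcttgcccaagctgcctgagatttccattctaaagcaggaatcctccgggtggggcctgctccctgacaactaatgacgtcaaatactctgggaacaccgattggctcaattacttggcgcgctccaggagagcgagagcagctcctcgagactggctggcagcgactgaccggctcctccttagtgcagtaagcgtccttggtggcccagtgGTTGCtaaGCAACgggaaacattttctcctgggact
Tekt2, chr4:126325689-126325938, minus strand: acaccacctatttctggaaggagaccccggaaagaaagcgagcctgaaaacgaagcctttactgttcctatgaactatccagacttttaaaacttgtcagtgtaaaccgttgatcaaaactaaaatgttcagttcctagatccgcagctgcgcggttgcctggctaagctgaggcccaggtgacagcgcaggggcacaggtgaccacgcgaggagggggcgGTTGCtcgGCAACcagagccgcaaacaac
Dnai2, chr11:114727169-114727418, plus strand: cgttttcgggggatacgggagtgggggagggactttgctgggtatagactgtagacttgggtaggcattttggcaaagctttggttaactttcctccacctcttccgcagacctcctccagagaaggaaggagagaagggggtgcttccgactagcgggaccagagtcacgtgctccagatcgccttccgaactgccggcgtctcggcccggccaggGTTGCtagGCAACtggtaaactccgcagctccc
Hydin, chr8:110266727-110266976, plus strand: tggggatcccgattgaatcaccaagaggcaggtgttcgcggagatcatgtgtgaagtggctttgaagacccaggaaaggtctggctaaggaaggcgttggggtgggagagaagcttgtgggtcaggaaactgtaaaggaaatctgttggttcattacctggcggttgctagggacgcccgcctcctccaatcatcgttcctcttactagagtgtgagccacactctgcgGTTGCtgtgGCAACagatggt
Cfap298, chr16:90934850-90935099, minus strand: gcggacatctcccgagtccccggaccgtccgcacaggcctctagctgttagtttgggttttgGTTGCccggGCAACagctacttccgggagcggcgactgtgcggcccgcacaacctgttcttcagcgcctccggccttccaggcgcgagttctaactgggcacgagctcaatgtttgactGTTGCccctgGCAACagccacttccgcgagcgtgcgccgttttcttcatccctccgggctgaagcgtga
The arms began 36 bases before the start of Dnah6, 29 before Tekt2, 33 before Dnai2 and 21 before Hydin, and Cfap298 held them 188 and 69 bases before its start. In Dnah6 the gap between the arms was 3 bases.

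Most of the family was at or near 0 in DMSO. In the DMSO libraries 40 of the 104 genes (38.5%) had no count, against 36.2% of all named genes, 25 (24.0%, against 9.95%) had a mean above 0 and under 10 normalized counts and 20 had a mean over 100, and the 20 most abundant members held 96.6% of the family's counts. A total of 27 genes (26.0%, against 29.2% of all named genes) were at 0 in every library of both groups, among them the inner arm heavy chains Dnah3, Dnah7a and Dnah7b, the outer arm intermediate chain Dnai1, the radial spoke head genes Rsph1 and Rsph4a, the central apparatus genes Spag16 and Spag6l and the tektins Tekt1, Tekt3 and Tekt5. A sum of 0 over the 3 libraries of a group allows up to 3 counts, so these genes were not detectable at this depth.

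More of the family was counted after P3FI-90. With at least 1 count in each of the 3 libraries of a group, 42 genes (40.4%) were detected in DMSO and 51 (49.0%) after P3FI-90. Detected after P3FI-90 alone were 11 (10.6% of 104), and 2 (1.92%) in DMSO alone. Over all named genes 56.0% were detected in DMSO and 58.7% after P3FI-90, with 3.80% after P3FI-90 alone and 1.13% in DMSO alone. Of the 40 members at 0 in DMSO, 3 (7.5%) were counted in all P3FI-90 libraries, namely Cfap53, Dnah10 and Rsph9, against 3.37% of the 8004 named genes at 0 in DMSO. Family counts were 571 to 576 CPM in the DMSO libraries and 760 to 774 CPM (relative to all counts on named genes) in the P3FI-90 libraries, without overlap. In normalized counts, which carry the TMM factors of 0.927 to 0.930 for DMSO and 1.076 to 1.078 for P3FI-90, the sum went from 21684 ± 134 to 25017 ± 270 (SD, n = 3), a ratio of 1.15.

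The filter on low counts (edgeR's filterByExpr) kept 49 of the 104 genes, of which 25 were called higher, 6 were called lower and 18 passed in neither direction (adjusted p under 0.05, edgeR's quasi-likelihood test, Benjamini-Hochberg adjustment over 12288 genes). Of all genes tested 79.3% were called, 39.9% higher and 39.4% lower, against 63.3%, 51.0% and 12.2% of the tested members. A log2 fold change over 1 was called in 16 members (32.7%) and in 12.7% of all genes, and one under −1 in 0 members and in 10.6% of all genes. The groups did not overlap for 34 members, and for 81.2% of all genes. The median log2 fold change was 0.66 over the tested members and 0.013 over all genes. Since genes that are high in only 1 group pass the filter through that group, these counts hold for the genes that passed and not for all 104.

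The family's counts depended on level and scaling. The 23 tested members that averaged 100 normalized counts or more over both groups had a median log2 fold change of 0.29, beside −0.03 over the 10571 genes tested at that level. Of these members 13 (56.5%) were called higher and 4 (17.4%) lower, against 40.3% and 43.1% of the genes at that level. The 26 with a lower mean had a median of 1.02, beside 0.42 over 1717 genes. Of these 12 (46.2%) were called higher and 2 (7.69%) lower, against 37.4% and 16.7% of genes at that level. Calls with a log2 fold change over 1 numbered 11 (42.3%) among these lower members and made up 33.8% of all lower genes, and at the higher level they were 5 (21.7%) against 9.28%. The plot of level and change shows the same shift of low genes above 0 across the whole table. With libraries scaled by total count alone, which raised the median of all genes to 0.23, 32 members were called higher and 2 lower, and over all genes 6179 were called higher and 3641 lower.

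**Figure D1:**
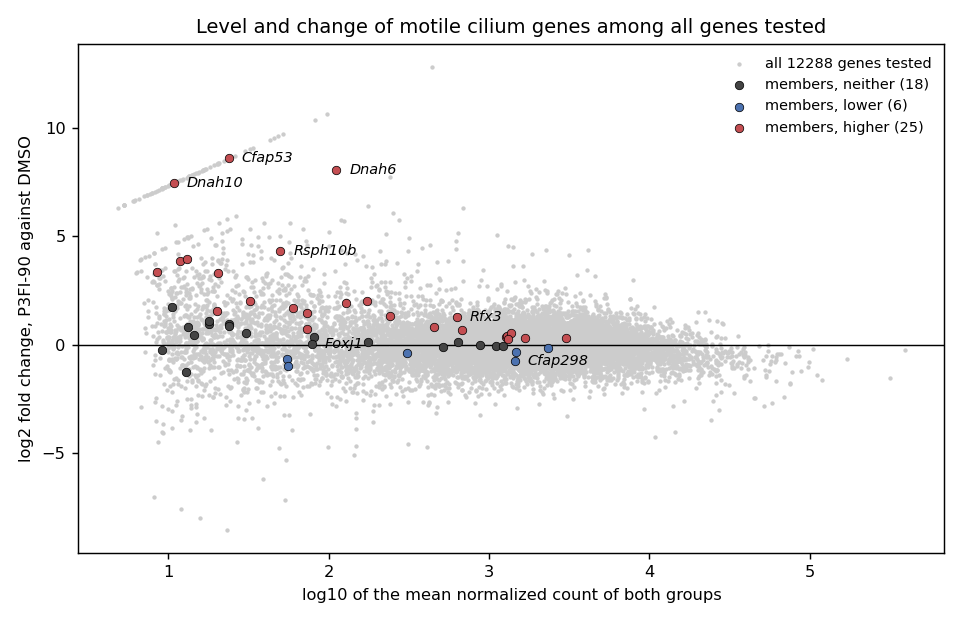
Each point is a gene, placed by the log10 of its mean normalized count over both groups (x axis) and its log2 fold change between P3FI-90 and DMSO (y axis), with all 12288 genes tested in grey and the 49 tested members in red (25 called higher), blue (6 called lower) or dark grey (18 neither). The members far above 0 lie at low means, and Dnah6 and Rsph10b stand above most grey points at their level.

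Of the 6 tested dynein heavy chains, the motor subunits, 3 rose and 3 passed in neither direction. Among all genes tested 39.9% were called higher and 39.4% lower. Dnah6 (ENSMUSG00000052861), an inner arm heavy chain, had 0, 2 and 0 counts in the DMSO libraries and 223, 232 and 257 after P3FI-90, so that every treated library lay far above every control. Its mean went from 0.803 ± 1.39 to 223 ± 24.9 normalized counts (SD, n = 3), and its fitted log2 fold change was 8.05 ± 0.46 (SE, edgeR adjusted p = 9.19e-10). Over all libraries Dnah6 had 2 counts with DMSO and 712 with P3FI-90, a 311-fold ratio. The exact 95% counting interval of this ratio ran from 85.8 to 2574, or from 55.5 to 12322 with counts halved (1 and 356). Without the second DMSO library, which held both counts, the bounds were higher than the matching lower limits. Dnah6 was then at least 146-fold higher against a floor of 3 counts. With the floor at 6, the floor for a table in which each read pair counts as 2, it was at least 72.9-fold higher. On the scale of normalized counts per kilobase of its 12652-base transcript, it went from 0.0635 to 17.6, and 1.11% of its 31-base windows also occur in other genes.

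Dnah10 (ENSMUSG00000038011), a heavy chain of the f-type inner arm, had no count in DMSO and 23, 28 and 19 counts after P3FI-90, with 21.8 ± 3.29 normalized counts (SD, n = 3). Against a floor of 3 counts over the DMSO libraries this is at least 20.4-fold higher (10.2-fold with the floor at 6, edgeR adjusted p = 6.39e-05). Its partner in that arm, Dnah2, had 6, 10 and 12 counts with DMSO and 15, 12 and 0 with P3FI-90, overlapping between groups. Its log2 fold change was −0.26 ± 0.78 (SE, edgeR adjusted p = 0.766). Dnah14 had 11, 20 and 0 counts and then 30, 21 and 26, also overlapping, with a log2 fold change of 1.08 ± 0.70 (SE, edgeR adjusted p = 0.171). It was called higher by limma-voom (2.27, adjusted p = 0.0337) and by edgeR without the second DMSO library (2.08, adjusted p = 0.0357).

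The outer arm changed in 1 of its 2 tested heavy chains. Dnah5, a heavy chain of the outer arm whose loss causes immotile cilia, had 0, 4 and 0 counts with DMSO and 20, 29 and 29 with P3FI-90, without overlap. Its log2 fold change was 3.96 ± 0.82 (SE, edgeR adjusted p = 5.09e-04). Dnah17, the heavy chain of sperm outer arms, had the highest DMSO level per kilobase of the heavy chains (4.72 normalized counts per kilobase), with 83.0, 55.4 and 73.5 normalized counts with DMSO and 98.2, 89.0 and 87.2 with P3FI-90. Its groups did not overlap, but its log2 fold change of 0.37 ± 0.23 (SE) did not pass the test (edgeR adjusted p = 0.159), although with total counts alone it did (0.58, edgeR adjusted p = 0.0328). Summed over the 5 outer arm heavy chains, the level went from 76.6 ± 16.4 to 120 ± 7.73 normalized counts, and over the 10 inner arm heavy chains from 28.6 ± 17.3 to 287 ± 7.94, most of which was Dnah6 (SD, n = 3).

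Other heavy chains were too low to test. Dnah12 had no count in DMSO and 6, 15 and 0 after P3FI-90, at least 6.12-fold higher over the group, or 3.06-fold with the floor at 6, although 1 treated library was at 0. Dnah7c had 3, 8 and 3 counts with DMSO and 0, 2 and 0 with P3FI-90, the opposite order, but 63.7% of its 31-base windows also occur in other genes, chiefly Dnah7b. Dnah8 had 8 counts over the DMSO libraries and 4 after P3FI-90, and Dnah1 2 and 9. Dynein heavy chain transcripts are long, and of the 296 tested genes with transcripts of at least 10000 bases 67.2% were called higher and 14.2% lower (median log2 fold change 0.59). With the dependence of fold change on transcript length and GC removed, log2 fold changes were 7.53 for Dnah6, 7.24 for Dnah10 and 3.34 for Dnah5, each still called, and −0.13 for Dnah17.

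**Figure D2:**
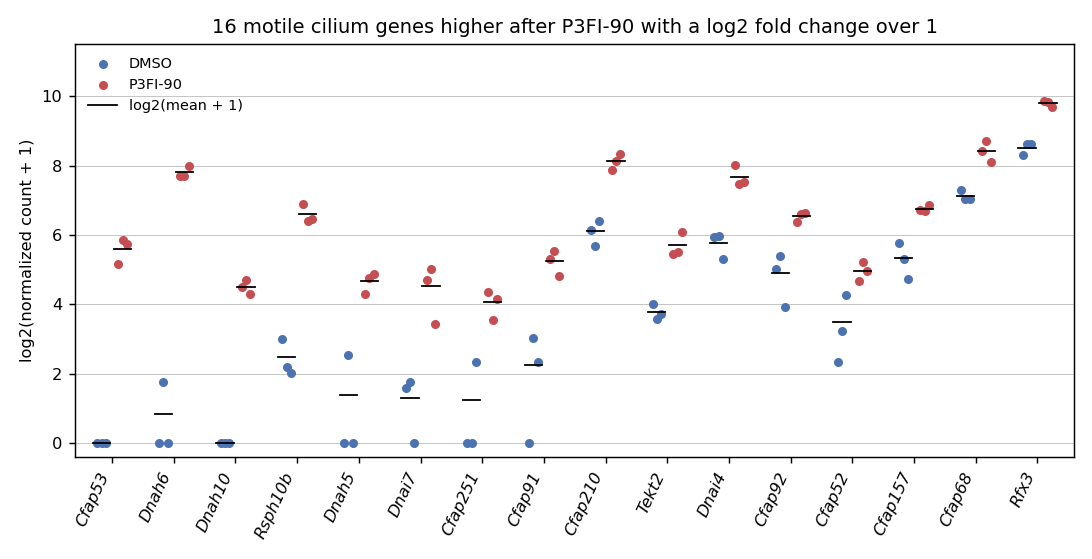
Each point is 1 library, with the log2 of the normalized count plus 1 on the y axis, for the 16 members called higher with a log2 fold change over 1 (x axis, ordered by fold change), with bars at the group means. The 3 P3FI-90 points lie above the 3 DMSO points for each gene, and Cfap53 and Dnah10 sit at 0 in all DMSO libraries.

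Intermediate chains, which anchor the heavy chains, rose in 2 of 3 tested members (66.7%, against 39.9% of all genes tested). Dnai4, an intermediate chain linked to the f-type inner arm, had 60.7, 61.4 and 38.8 normalized counts with DMSO and 256, 174 and 182 with P3FI-90, without overlap. Its log2 fold change was 1.93 ± 0.24 (SE, edgeR adjusted p = 3.54e-06). Dnai7 had 2, 2 and 0 counts with DMSO and 27, 35 and 10 with P3FI-90, and its log2 fold change came to 3.85 ± 0.81 (SE, edgeR adjusted p = 6.03e-04). Dnai2, an outer arm intermediate chain, had 11, 6 and 10 counts and then 34, 17 and 4, so its P3FI-90 libraries spread on both sides of DMSO and it was called neither (edgeR adjusted p = 0.258). Dnai1 and Dnai3 were at 0 in every library.

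Assembly factors fell into a high and a low set by level. Dnaaf2, Dnaaf5, Dnaaf9 and Dnaaf10, co-chaperones and scaffolds of dynein assembly, had 1112 to 1638 mean normalized counts in DMSO. Dnaaf9, Dnaaf5 and Dnaaf10 rose, with log2 fold changes of 0.55 ± 0.05, 0.39 ± 0.07 and 0.35 ± 0.06 (SE), and Dnaaf2 fell by 0.32 on the log2 scale, a call lost with total counts alone (edgeR adjusted p = 0.130). For Dnaaf2, 71.1% of the 31-base windows also occur in other genes, and whether counting used strand is not given in the sources used here. The other 5 were too low to test. Dnaaf1 had no count in DMSO and 10, 0 and 6 after P3FI-90, Dnaaf3 had 4, 0 and 7 in DMSO and none after P3FI-90, and Dnaaf6 was at 0 in every library. Dnaaf3 was at least 4.20-fold lower over the group and Dnaaf1 at least 4.66-fold higher, on 11 and 16 counts, or 2.10-fold and 2.33-fold with the floor at 6.

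The molecular ruler and N-DRC, which space and link the arms, were low. Ccdc39, a subunit of the ruler that sets the axonemal repeat, rose from 34.4, 77.1 and 54.1 normalized counts in DMSO to 84.2, 90.8 and 97.0, and its log2 fold change came to 0.73 ± 0.28 (SE, edgeR adjusted p = 0.0304). It lost this call without the first DMSO library, the third DMSO library or any 1 of the P3FI-90 libraries (edgeR adjusted p of 0.0509 to 0.140). The call was also lost with the length and GC trend removed (edgeR adjusted p = 0.0613). Of the Ccdc39 windows 31.5% also occur in other genes, chiefly the antisense gene Ttc14. Its partner Ccdc40 had 15.2, 14.5 and 20.4 normalized counts and then 35.6, 29.7 and 27.4, and Drc3 had 11.1, 13.2 and 12.2 and then 20.6, 29.7 and 20.6. Neither overlapped between groups, and both missed the threshold (edgeR adjusted p = 0.0548 and 0.0610). Both were called higher with total counts alone (edgeR adjusted p = 0.0206 and 0.0254) and with at least 10 counts in every library (0.0187 and 0.0234), Ccdc40 also with halved counts (0.0480) and Drc3 with the trend removed (0.0480). Drc1 had no count in DMSO and 0, 7 and 7 after P3FI-90, and Drc7 was at 0 in every library.

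Of the 3 tested radial spoke genes, 1 (33.3%) was called higher and 0 lower, against 39.9% and 39.4% of all genes tested. Rsph10b (ENSMUSG00000075569), a spoke head gene, had 7, 3 and 3 counts with DMSO and 125, 92 and 88 with P3FI-90, so that the lowest treated library was far above the highest control. Its mean went from 4.59 ± 2.18 to 95.3 ± 18.8 normalized counts (SD, n = 3), and its log2 fold change came to 4.32 ± 0.39 (SE, edgeR adjusted p = 1.55e-07). Its exons overlap those of Pms2 and Gm42421 on the same strand, and 13.2% of its windows occur in other genes. Rsph3a and Rsph3b, which encode the spoke stalk, were the abundant members, with 1238 ± 48.1 and 533 ± 142 normalized counts in DMSO and 1191 ± 72.8 and 496 ± 43.1 after P3FI-90 (SD, n = 3). With TMM scaling and all libraries neither was called (log2 fold changes −0.06 and −0.10). With total counts alone Rsph3a was called higher (0.16, edgeR adjusted p = 0.0336) and Rsph3b was at 0.11, not called, and without the third DMSO library Rsph3b was called lower (−0.31, edgeR adjusted p = 0.0144). Of their windows, 85.7% and 84.0% also occur in other genes, chiefly each other, so reads between the 2 genes are uncertain. Rsph9 had no count in DMSO and 5, 14 and 4 after P3FI-90, at least 6.70-fold higher over the group, or 3.35-fold with the floor at 6.

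Of the central apparatus genes grouped here by symbol (Hydin and the Spag genes), neither of the 2 tested was called by edgeR. Their unadjusted edgeR p was under 0.05 for 0 of them. Cfap74, a central apparatus protein counted with the Cfap genes, is given below. Spag6 had 0, 0 and 14 counts with DMSO and 29, 15 and 9 with P3FI-90, overlapping because of the third DMSO library, with a log2 fold change of 1.71 ± 0.92 (SE, edgeR adjusted p = 0.101). Without that library DMSO held no Spag6 count, so the fitted log2 fold change of 7.06 (edgeR adjusted p = 2.07e-03) depends on the prior count. With all libraries limma-voom called Spag6 higher (3.22, adjusted p = 8.21e-03). Spag17 had 11, 12 and 11 counts and then 26, 19 and 9, and its log2 fold change came to 0.46 ± 0.51 (SE, edgeR adjusted p = 0.423). Hydin, which braces the central pair, had 3 counts over the DMSO libraries and 19 after P3FI-90, and the exact 95% counting interval of this 5.53-fold ratio ran from 1.63 to 29.2. With counts halved (2 and 10) the interval ran from 0.931 to 41.0, and all 3 DMSO counts lay in the first library. Tekt2, a filament protein inside the doublets and of the sperm tail, was the only tektin to pass the filter. It had 15.2, 10.8 and 12.2 normalized counts with DMSO and 43.0, 45.0 and 66.6 with P3FI-90. Its log2 fold change came to 1.99 ± 0.38 (SE, edgeR adjusted p = 2.43e-04), and 21.1% of its windows also occur in other genes, chiefly an antisense gene.

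**Figure D3:**
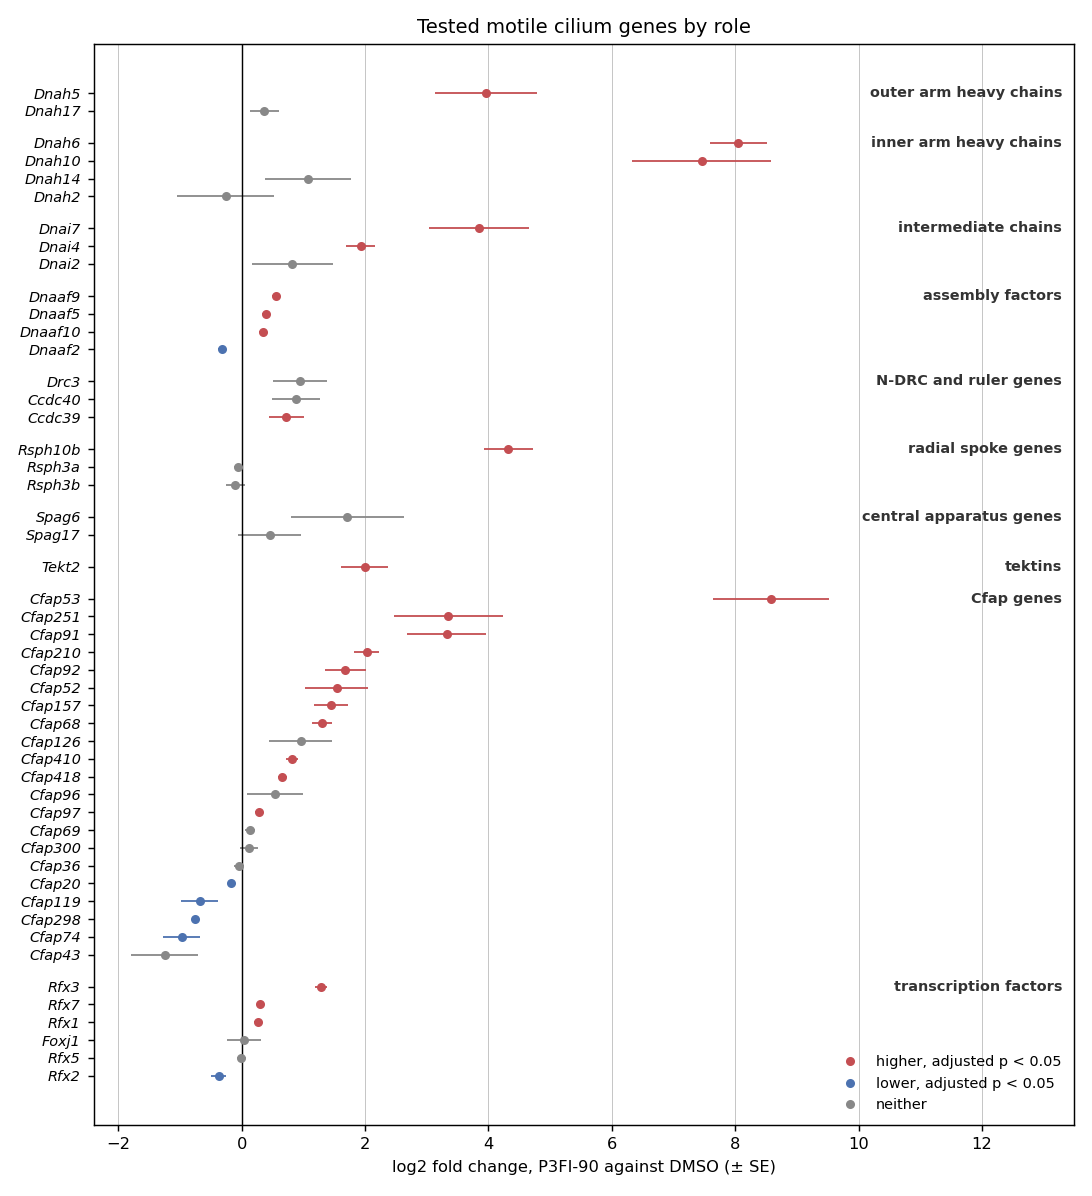
Log2 fold change between P3FI-90 and DMSO (x axis) with its SE for the 49 tested members, grouped by role and coloured by call. Points right of 0 are higher after P3FI-90, and the spread runs from Cfap43 at −1.25 to Cfap53 at 8.58, a fitted value that depends on the prior count because its DMSO libraries are at 0.

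Among the 44 Cfap genes 12 were at 0 in every library and 21 were tested. Of the tested genes 11 (52.4%) rose and 4 (19.0%) fell, against 39.9% and 39.4% of all genes tested. Cfap53 (ENSMUSG00000035394), a protein of the doublet lumen needed for left-right patterning, had no count in DMSO and 37, 63 and 53 after P3FI-90, at least 44.6-fold higher over the group, or 22.3-fold with the floor at 6. Cfap210, another lumen protein, had 69.8, 50.6 and 83.7 normalized counts with DMSO and 235, 278 and 324 with P3FI-90, and its log2 fold change came to 2.02 ± 0.20 (SE, edgeR adjusted p = 4.33e-07). Cfap91 and Cfap251, components of the spoke base complex, had 0, 6 and 4 counts and 0, 0 and 4 counts in DMSO, and 41, 51 and 28 and 21, 12 and 17 after P3FI-90. Their log2 fold changes were 3.32 ± 0.64 and 3.35 ± 0.88 (SE, edgeR adjusted p = 2.83e-04 and 3.17e-03).

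Cfap68 rose from 157, 131 and 131 to 342, 414 and 276 normalized counts. Its log2 fold change came to 1.30 ± 0.17 (SE), and 39.7% of its windows occur in other genes, chiefly the antisense gene Fdxacb1. Cfap92 had a log2 fold change of 1.68 ± 0.33 (SE), from 31.4, 41.0 and 14.3 to 81.4, 96.2 and 98.0 normalized counts. It shares 45.6% of its windows with other genes, chiefly an antisense gene. Cfap157, a basal body protein of sperm, went from 53.6, 38.5 and 25.5 to 105, 102 and 116 (log2 fold change 1.45 ± 0.28, SE). The 3 genes passed the test in every setting tried for them. Cfap52 went from 4.05, 8.43 and 18.4 to 24.3, 36.0 and 30.4 (log2 fold change 1.54 ± 0.52, SE, edgeR adjusted p = 0.0140), and missed the threshold without the first DMSO library (edgeR adjusted p = 0.0652), the second DMSO library or the second P3FI-90 library.

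The abundant Cfap genes moved by less and in both directions. Cfap410 and Cfap418, both linked to the photoreceptor cilium, and Cfap97 rose by 0.81, 0.66 and 0.29 on the log2 scale, from 330 to 579, 528 to 832 and 1514 to 1846 mean normalized counts. The call of Cfap97 was lost with the length and GC trend removed (0.087, edgeR adjusted p = 0.210). Cfap298, a dynein assembly protein with the highest DMSO level per kilobase of the family (1264 normalized counts per kilobase), fell from 1705, 1889 and 1828 to 1016, 1129 and 1081 normalized counts, by 0.75 ± 0.06 on the log2 scale (SE, edgeR adjusted p = 4.41e-08). For Cfap298, 47.9% of the windows also occur in other genes, chiefly an antisense gene. Cfap74, a central apparatus protein, fell by 0.97 (edgeR adjusted p = 8.52e-03) and Cfap20, a doublet junction protein, by 0.17 (edgeR adjusted p = 0.0132), though its call was lost without the first DMSO library and its sign turned with total counts alone (0.049). Cfap119 fell by 0.68 with an adjusted p of 0.0473 from edgeR and missed the threshold under 10 of 16 alternatives. Of the Cfap119 windows 32.6% also occur in other genes, chiefly the antisense gene Phkg2. Cfap43 had 13.2, 22.9 and 18.4 normalized counts and then 3.74, 8.09 and 10.8, below DMSO in each library, and missed the threshold (log2 fold change −1.25, edgeR adjusted p = 0.0504). It was called lower with upper quartiles (edgeR adjusted p = 0.0441), with the trend removed (−1.53, edgeR adjusted p = 0.0204), by limma-voom (adjusted p = 0.0382) and without the third P3FI-90 library (−1.58, edgeR adjusted p = 0.0480).

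The transcription factors did not change together. Foxj1 (ENSMUSG00000034227), the activator of the motile programme, had 71.9, 87.9 and 73.5 normalized counts with DMSO and 81.4, 106 and 50.9 with P3FI-90, with overlapping groups. Its log2 fold change was 0.04 ± 0.28 (SE, edgeR adjusted p = 0.902). Rfx3 (ENSMUSG00000040929), an X-box factor of ciliated and islet cells, rose from 314, 390 and 391 to 930, 915 and 821 normalized counts, and its log2 fold change came to 1.29 ± 0.10 (SE, edgeR adjusted p = 2.48e-08). With the length and GC trend removed its log2 fold change was 0.78 (edgeR adjusted p = 5.39e-06).

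Rfx2, the X-box factor of sperm and ciliated cells, had 352, 357 and 332 normalized counts with DMSO and 292, 276 and 234 with P3FI-90, and fell by 0.37 ± 0.12 on the log2 scale (SE, edgeR adjusted p = 0.0120), a call lost with total counts alone (edgeR adjusted p = 0.243). Rfx1 rose from 1192 ± 97.2 to 1437 ± 56.2 normalized counts and Rfx7 from 2688 ± 105 to 3311 ± 144 (SD, n = 3), with log2 fold changes of 0.27 and 0.30. The direction of Rfx7 turned with the length and GC trend removed, to −0.12 (edgeR adjusted p = 0.0415). Rfx5, which acts at MHC class II promoters, was at 879 ± 73.7 and 877 ± 13.8 normalized counts and was not called (log2 fold change −0.003, edgeR adjusted p = 0.972), although with total counts alone it was called higher (0.21, edgeR adjusted p = 0.0181). Rfx4 had 3 counts in 1 P3FI-90 library, and Rfx6 was at 0 in every library. Per kilobase of transcript the order in DMSO was Rfx7 (337), Rfx1 (286), Rfx5 (198), Rfx2 (83.8), Rfx3 (39.9) and Foxj1 (29.6 normalized counts per kilobase).

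**Figure D4:**
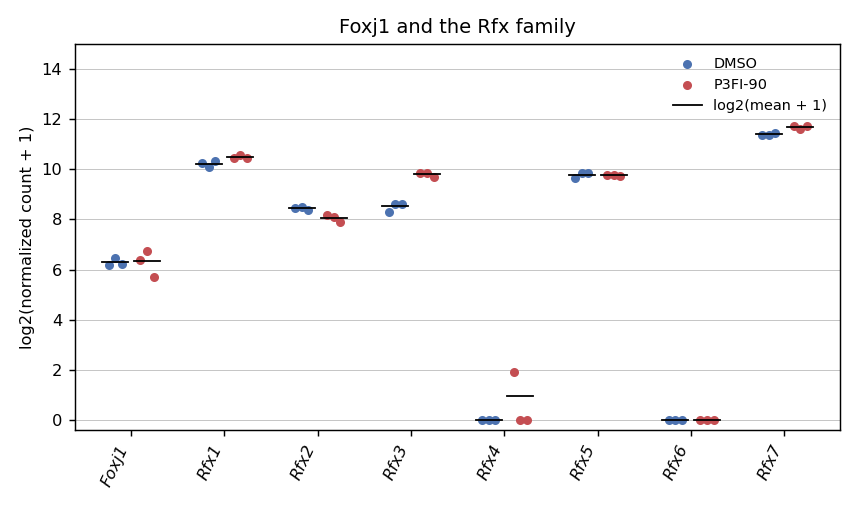
Each point is 1 library, with the log2 of the normalized count plus 1 on the y axis, for Foxj1 and the 7 Rfx genes (x axis), with bars at the group means. Rfx3 separates the groups by the widest margin, Foxj1 overlaps, and Rfx6 sits at 0.

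The other genes of the pathway were read from 6 lists written by hand with results of these data known. Beside the list shares below, 39.9% of all genes tested were called higher and 39.4% lower. Of 23 tested motile cilium genes outside the family, 13 (56.5%) rose and 2 (8.70%) fell, and the median log2 fold change was 0.70. Dnal1, an outer arm light chain, rose from 485 ± 14.5 to 777 ± 23.1 normalized counts and Spag1, an assembly factor, from 279 ± 15.4 to 491 ± 71.2 (SD, n = 3). Dthd1 had no count in DMSO and 30.0 ± 3.31 normalized counts after P3FI-90, and Nme7 fell by 0.80 on the log2 scale. Regulators of the multiciliated fate were 3 (25.0%) higher and 7 (58.3%) lower of 12 tested, with a median of −0.18. Of these, Plk4 and Cep63, of centriole duplication, rose by 0.39 and 0.72, and the signalling genes Notch1 and Yap1 fell by 1.34 and 0.82 on the log2 scale. The list was not split by whether a gene favours or opposes that fate, so its counts and median give no direction for the fate.

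Of 30 tested intraflagellar transport genes, the transport machinery shared by motile and primary cilia, 5 (16.7%) rose and 18 (60.0%) fell (median −0.31). With total counts alone 7 rose and 9 fell (median −0.099). Dync2h1, the heavy chain of the retrograde transport dynein, rose from 434 ± 33.6 to 1190 ± 33.4 normalized counts, whereas Ttc21b and Ift43 of the same retrograde machinery fell by 0.99 and 0.82 on the log2 scale (SD, n = 3). BBSome and transition zone genes were 12 (32.4%) higher and 16 (43.2%) lower of 37, with a median of −0.13. Bbs4 rose by 1.20 while Bbs12 fell by 1.67. Cytoplasmic dynein 1 and dynactin genes were 8 (33.3%) higher and 13 (54.2%) lower of 24, with a median of −0.16. Dynll1, the shared light chain, fell by 1.08. Of 40 germ line genes, listed because sperm flagella share the axoneme, 9 were tested, and 3 (33.3%) rose and 0 fell in edgeR's test. The median of the 9 was 0.84, which turned to −0.020 with at least 10 counts in every library and −0.029 with halved counts. At an unadjusted p under 0.05, Odf2 was lower as well (log2 fold change −0.11, edgeR adjusted p = 0.0532), and limma-voom called 1 gene lower. The 3 higher genes were Sycp1, Spo11 and Piwil2, with log2 fold changes of 1.72, 1.06 and 2.56. The total-count scaling turned the medians of the regulator, BBSome and cytoplasmic dynein lists to 0.04, 0.09 and 0.05.

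**Figure D5:**
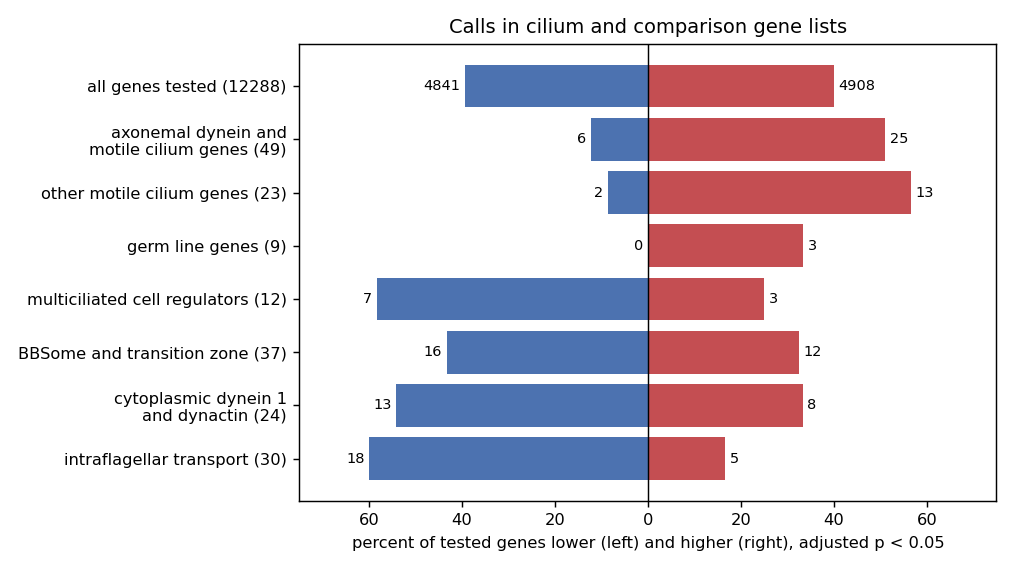
Percent of tested genes called lower (blue, left) and higher (red, right) after P3FI-90 at an adjusted p under 0.05 from edgeR, with the number of genes called at each bar end and the number tested in brackets. The member bar is 12.2% to the left and 51.0% to the right, beside 39.4% and 39.9% for all genes, and intraflagellar transport is 60.0% and 16.7%.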

How the data were processed

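Total RNA of 4T1 cells, 3 libraries with DMSO and 3 with P3FI-90, was prepared with the Illumina mRNA-Seq kit and sequenced on a NovaSeq. The submitters' processing notes name CASAVA, HISAT2, StringTie and the build GRCm39, without versions, and the study's methods name limma for its comparisons. The authors deposited raw counts per gene in 1 table of 22401 rows. The counting tool, annotation and strandedness are not given in the sources used here. Counts of 2 were more frequent than counts of 1 in all libraries (311 and 81 genes in the first DMSO library), and whether a read pair was counted as 1 or 2 is not known. A further 285 rows, assembled transcripts with no gene name, held 0.483% to 0.556% of a library's counts and were left out.

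Counts were analysed in R 4.3.3 with edgeR 4.0.16 (filterByExpr, TMM, quasi-likelihood test, Benjamini-Hochberg adjustment over 12288 genes) with no further covariate. The common biological coefficient of variation was 0.0648. Equal replicate numbers did not pair the libraries (correlations of deviations −0.021, 0.015 and 0.0049). With 3 libraries against 3 an exact permutation test of a single gene cannot give a p below 0.1. Exact counting intervals cover counting error only. Floors (3 counts over a group) allow for counting error only in the group at 0. They take the counts of the other group as exact, so the bounds given as "at least" leave out its counting error. Transcript lengths, GC content, overlaps and shared 31-base windows came from GENCODE M21, whose build (GRCm38) differs from that of the counts. The only coordinates given are those of the printed promoter sequences. Promoters are from RefSeq, GRCm38.p6.

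The members and lists were chosen with earlier results of these data known. Per-library values are given for members called with an absolute log2 fold change over 1 and at least 20 mean normalized counts in a group, for Foxj1 and Rfx genes, for Dnah genes with at least 10 counts, and for members with 0 to 3 counts in 1 group and a mean of at least 10 in the other. Further members and counts (Cfap251, Cfap43, Cfap298, Cfap119, the ruler, N-DRC, central apparatus and low assembly and spoke genes) were added after their values were seen. Cell type markers were named to check the label, and genes of other lists are among the 4 with the smallest p in their list. Alternatives were DESeq2 (1.42.0) size factors and Wald test, total counts, upper quartiles, 2 other filters, limma-voom (3.58.1), a replicate block, removal of a length and GC trend and each library left out, and, added after the data were seen, halved counts.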

Additional observations from a re-analysis of the deposited data

How the results depend on the processing

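Over 16 alternatives the members called higher numbered 17 to 32 and those called lower 2 to 7, with the lowest and highest count of higher calls at a minimum of 10 counts in every library and with total counts alone, and the 2 lower calls with total counts. Their median log2 fold change, 0.66, was 0.87 with total counts, 0.81 with no filter, 0.34 with at least 10 counts in every library and 0.54 with the length and GC trend removed. Leaving out 1 library gave 23 to 25 higher, 4 to 6 lower and medians of 0.56 to 0.67. At least 1 count in any library gave 64 members detected in DMSO. With equal replicate numbers as a block, 25 members were higher and 5 lower, the call lost being Cfap119 (edgeR adjusted p = 0.0690), and over all genes 4802 were higher and 4722 lower. The labels share only a number, and the block changed no other call of a tested member.

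The median over all genes, 0.013, was 0.023 with DESeq2 size factors, 0.022 with the DESeq2 Wald test, 0.23 with total counts, −0.026 with upper quartiles, 0.099 with no filter, −0.0020 with at least 10 counts and −0.029 with the trend removed, and 0.011 to 0.026 with 1 library left out.

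For other motile cilium genes total counts gave 1 lower gene and a median of 0.91, and no filter a median of 0.88. For multiciliated regulators total counts gave 4 lower and 0.035, upper quartiles −0.22 and no filter 0.14. For intraflagellar transport, upper quartiles and trend removal gave 3 higher, total counts 9 lower and a median of −0.099, and leaving out 1 library 3 to 5 higher. BBSome and transition zone medians were 0.088 with total counts and −0.17 to 0.030 with 1 library left out, turning above 0 without the second DMSO library. Cytoplasmic dynein medians were 0.050 with total counts and 0.0076 with trend removal. For germ line genes total counts gave 5 higher, upper quartiles, trend removal and limma-voom gave 1 lower, medians were −0.020 with at least 10 counts and −0.029 with halved counts, and leaving out 1 library gave 0 to 1 lower and medians of 0.46 to 1.07.

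Of 760 values of the 49 tested members under alternatives, 689 kept direction and side of the threshold, 28 turned direction, 23 lost and 20 gained a call. With total counts, Cfap20 (0.049), Cfap36 (0.17), Rfx5 (0.21), Rsph3a (0.16) and Rsph3b (0.11) turned above 0. With the trend removed, Cfap69 (−0.11), Dnah17 (−0.13) and Rfx7 (−0.12) turned below 0 and Cfap36 (0.014), Rsph3a (0.081) and Rsph3b (0.036) above. Foxj1 was −0.011 with the block and −0.0022 with limma-voom. Rfx5 was 0.0069 with DESeq2 size factors and the Wald test, 0.016 with at least 10 counts, 0.0079 with halved counts and 0.0037 with limma-voom. With 1 library left out Foxj1 ranged from −0.23 to 0.27, Rfx5 from −0.075 to 0.031, Dnah2 from −0.85 to 0.29, Rsph3b from −0.31 to 0.016 and Cfap36 from −0.11 to 0.0010. The causes were not tested. With 0 to 3 counts in DMSO, fitted fold changes depend on the prior count. The bounds of Dnah10, Cfap53 and Dnah12 were 10.2, 22.3 and 3.06 against a floor of 6 counts. That floor was applied to the other bounds, and halved counts to the Hydin and Dnah6 intervals, after the data were seen.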
